A study of Mus musculus with 24 samples.

Results

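The 6 genes examined guide where a developing T cell sits in the thymus and when it leaves. They are the chemokine receptor genes Ccr7, Ccr4, Ccr9 and Cxcr4, the sphingosine 1-phosphate receptor gene S1pr1, and Klf2, which encodes a transcription factor. The genes were chosen by symbol, and all 10 probe sets mapped to those 6 symbols were kept, of 45101 probe sets and 18193 named genes on the array. Expression was read on 24 Affymetrix Mouse430_2 arrays of double-positive (DP) cells, which carry both CD4 and CD8 and are the stage at which thymocytes are selected on their T cell receptor. The cells came from the thymus of 12 male Black 6J mice aged 8 weeks, with 3 mice for each of 4 genotypes: wild-type, Sap KO, Elk KO and Elk/Sap KO. Sap and Elk were read as Elk4 (SAP-1) and Elk1, ternary complex factors that bind DNA with serum response factor and are activated by ERK kinases. The labels do not say in which cells or by which allele the genes were removed. DP cells were sorted with anti-CD4 and anti-CD8, rested for 2 h, and then kept in wells with bound anti-CD3 or without it (untreated) for 30 min. Each genotype therefore has 3 untreated and 3 anti-CD3 arrays, so precision is limited by 3 arrays a group. The series is titled as a study of ternary complex factors in positive selection.

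Thymocytes move as they mature. CXCR4 and CCR9 hold and guide cells in the cortex, where DP cells reside. Cells that receive a selecting signal gain CCR7 and CCR4 and enter the medulla. Mature cells then express KLF2, which drives S1pr1, and S1PR1 lets them follow sphingosine 1-phosphate into the blood, while CD69 on recently stimulated cells holds S1PR1 inside. In DP cells Ccr7, S1pr1 and Klf2 are accordingly described as low.

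RefSeq promoters (build GRCm38.p6) were matched by symbol for 4 of the 6 genes: Ccr4, Ccr9, Cxcr4 and Klf2. The promoters of Ccr4, Cxcr4 and Klf2 are printed because the levels of these genes changed or separated between groups, and ternary complex factors, the early growth response factors and AP-1 are nuclear targets of ERK signalling. Each is the 250 bases before a start of transcription, 5′ to 3′ on the gene's own strand, with matches in capitals. The Ccr4 window lies inside the span of that gene, 114490316 to 114505476, so its start is not the outermost one. The Cxcr4 and Klf2 windows adjoin the ends of their genes. The motifs were chosen after the genes' values were known.
Ccr4, chr9:114496545-114496794, minus strand: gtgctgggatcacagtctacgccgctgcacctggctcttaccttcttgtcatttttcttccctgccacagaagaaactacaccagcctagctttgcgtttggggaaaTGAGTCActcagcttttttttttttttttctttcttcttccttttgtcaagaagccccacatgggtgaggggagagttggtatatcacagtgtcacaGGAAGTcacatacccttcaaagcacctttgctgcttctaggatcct
Cxcr4, chr1:128592300-128592549, minus strand: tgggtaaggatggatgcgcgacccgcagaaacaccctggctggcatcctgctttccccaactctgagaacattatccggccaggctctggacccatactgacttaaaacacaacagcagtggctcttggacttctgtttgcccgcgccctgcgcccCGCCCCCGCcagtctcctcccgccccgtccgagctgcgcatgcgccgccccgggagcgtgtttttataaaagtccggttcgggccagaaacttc
Klf2, chr8:72318812-72319061, plus strand: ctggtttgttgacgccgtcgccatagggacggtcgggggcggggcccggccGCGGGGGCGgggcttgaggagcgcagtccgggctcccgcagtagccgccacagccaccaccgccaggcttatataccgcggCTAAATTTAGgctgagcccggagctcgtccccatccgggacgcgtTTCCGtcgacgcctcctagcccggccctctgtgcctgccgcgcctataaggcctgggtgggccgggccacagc
For this, 6 motifs were searched on both strands: the ETS-type words GGAAGT and CGGAA, the AP-1 word TGANTCA, the early growth response word GCGNGGGCG, and, by name, the CArG box bound by serum response factor and the Mef2 box. In Ccr4 the capitals mark a TGANTCA match 143 to 137 bases before the start and a GGAAGT match 46 to 41 bases before it. In Cxcr4 they mark a GCGNGGGCG match on the opposite strand, 94 to 86 bases before the start. In Klf2 they mark GCGNGGGCG (199 to 191 bases before), a Mef2 box (118 to 109 bases before) and CGGAA on the opposite strand (73 to 69 bases before). No match in the printed windows overlapped another. The Ccr9 window held none of the 6 motifs, and no CArG box was found in the 4 windows. Among 32851 RefSeq mouse promoters of the same length, GGAAGT matched in 19.7%, CGGAA in 25.2%, TGANTCA in 6.75%, GCGNGGGCG in 4.7%, the CArG box in 1.47% and the Mef2 box in 0.508%. A match describes these letters and is not a measured binding site.

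Values are log2 signal, and each gene is given by its brightest probe set. Differences were tested with limma over 18193 genes, and a gene was called when its adjusted p (Benjamini-Hochberg) was under 0.05; "rose" and "fell" are kept for called genes. Signal near background was judged against Xist, which male cells do not express and which lay between 4.07 and 5.07. The p values measure the spread between these arrays. In cells measured in bulk, fewer cells of a type and less RNA per cell cannot be told apart. Among the checks, Elk4 was lower in untreated Sap KO than in wild-type arrays (log2 change -3.42, adjusted p = 8.32e-08), and likewise in Elk/Sap KO arrays (-3.42, adjusted p = 1.13e-07). Elk1 lay near background, and its log2 change of -0.55 in untreated Elk KO arrays had an adjusted p of 0.293. All 13 measured DP marker genes lay above the Xist range, from Ptcra at 6.50 to Cd8b1 at 12.78. Several features of the arrays move with genotype. The 3′ to 5′ difference of Actb probe sets, a sign of RNA quality, was 0.151 to 0.359 in wild-type, 0.166 to 0.24 in Sap KO, 0.381 to 0.654 in Elk KO and 0.545 to 1.05 in Elk/Sap KO arrays. The dap spike-in was low (5.92 to 6.63) in 4 of 6 wild-type and 4 of 6 Sap KO arrays and high (8.83 to 9.78) in the other wild-type and Sap KO arrays and in all Elk KO and Elk/Sap KO arrays. The untreated array of Elk/Sap KO mouse 2 had a relative log expression spread of 0.826, against 0.179 to 0.363 in the other 23 arrays. Among Elk KO arrays, untreated mouse 1 correlated with anti-CD3 mouse 2 at 0.687 but with anti-CD3 mouse 1 at 0.1, so counts over mice are also given without Elk KO mice 1 and 2.

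**Figure D1:**
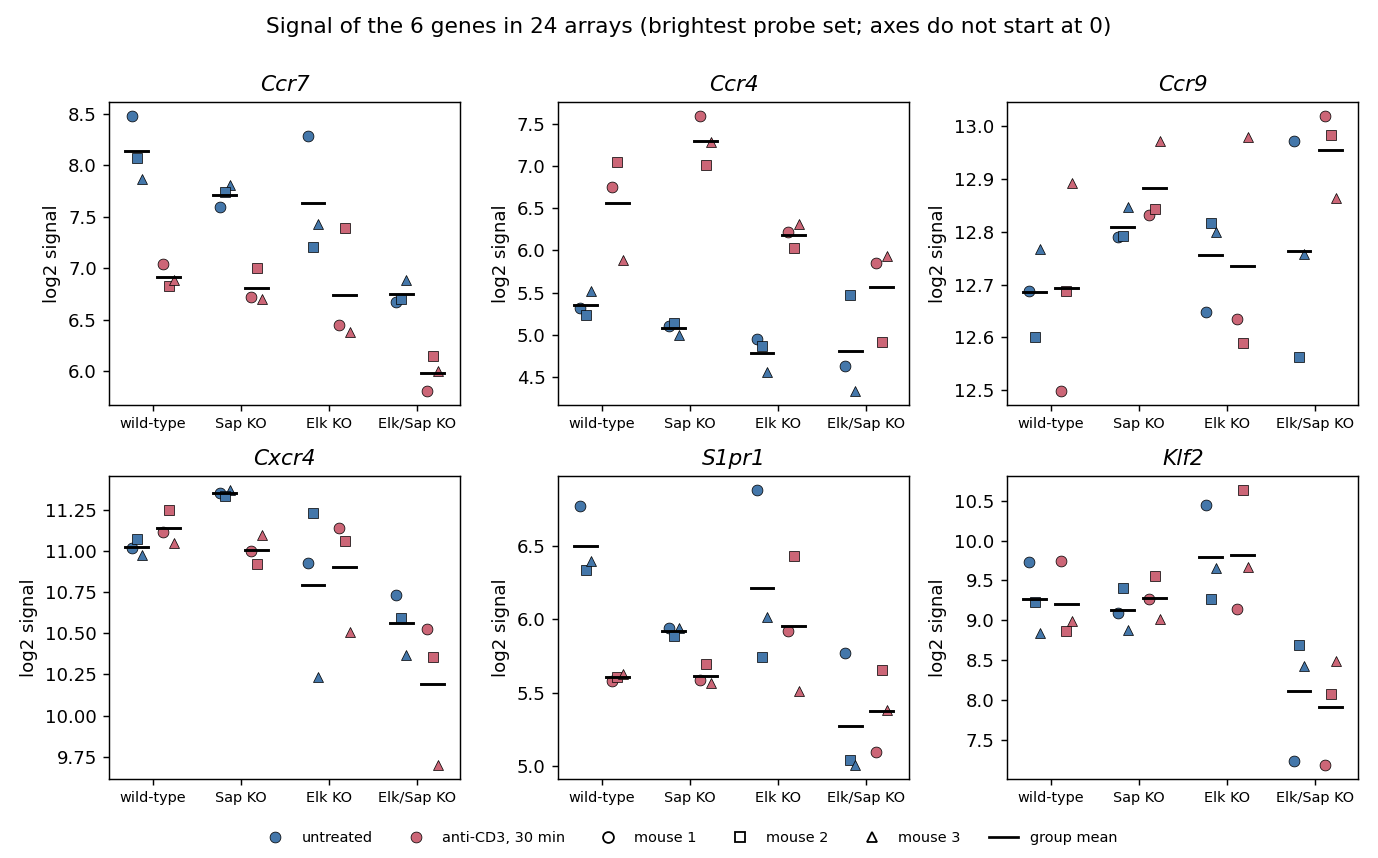
log2 signal (y axis) of the 6 genes in each of the 24 arrays, by genotype (x axis), with untreated arrays in blue and anti-CD3 arrays in red, the mouse number as the symbol and the group mean of 3 arrays as a bar; the y axes do not start at 0. Ccr7 is lower and Ccr4 higher in the anti-CD3 arrays, and the Elk/Sap KO arrays hold the lowest group mean within each state for Ccr7, Cxcr4, S1pr1 and Klf2.

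Ccr7 encodes the receptor for CCL19 and CCL21, which draws selected thymocytes towards the medulla. Its messenger fell with anti-CD3 in wild-type cells and was lower in Elk/Sap KO cells in both states. In wild-type mice 1, 2 and 3 it read 8.48, 8.07 and 7.87 untreated and 7.04, 6.83 and 6.88 after anti-CD3. All stimulated wild-type arrays lay below all untreated ones. In the wild-type response 11.1% of all genes separated without overlap in either direction, and 3 of the 6 members did. In the Sap KO, Elk KO and Elk/Sap KO responses 12.5%, 10.9% and 4.78% of all genes did. The wild-type change of Ccr7 was -1.22 ± 0.24 (log2 ± SE, 2.33-fold lower, adjusted p = 0.0173). This was the one member of 6 called in the wild-type response, in which 0.352% of all genes were called, 0.022% as lower. With mouse as a block, the adjusted p was 0.099. The call was also lost without untreated wild-type mouse 1 (adjusted p = 0.184) or mouse 2 (0.0767), and without anti-CD3 wild-type mouse 2 (0.123) or mouse 3 (0.0812).

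In Sap KO mice 1, 2 and 3 Ccr7 read 7.60, 7.74 and 7.81 untreated and 6.72, 7.00 and 6.70 after anti-CD3. In Elk KO mice the untreated values were 8.28, 7.20 and 7.43 and the stimulated values 6.45, 7.39 and 6.38. In Elk/Sap KO mice they were 6.67, 6.70 and 6.88 untreated and 5.81, 6.15 and 6.00 stimulated. Stimulated arrays lay below untreated arrays without overlap in Sap KO and Elk/Sap KO, and overlapped in Elk KO through stimulated mouse 2. The separate changes of -0.91 in Sap KO (adjusted p = 0.21), -0.90 in Elk KO (0.403) and -0.77 in Elk/Sap KO (0.465) were not called. The Elk KO change was -1.22 without stimulated mouse 2 (adjusted p = 0.0213) and -0.57 without untreated mouse 1 (1.00). Averaged over the 4 genotypes, Ccr7 fell by 0.95 ± 0.12 on the log2 scale (1.93-fold lower, adjusted p = 2.81e-05), and it was lower in 11 of 12 mice, or 10 of 10 without Elk KO mice 1 and 2. In this averaged response 2 of the 6 genes were called, Ccr7 and Ccr4, where 1.45% of all genes were called. The differences between each knockout's Ccr7 response and that of wild type, 0.31, 0.33 and 0.46, were not called (adjusted p = 0.703 to 1.00).

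Before stimulation Ccr7 was 2.62-fold lower in Elk/Sap KO than in wild-type arrays (-1.39 ± 0.24, adjusted p = 0.00457). The untreated Elk/Sap KO arrays lay below every untreated array of the other genotypes, and at 6.67 to 6.88 stood among or just below the stimulated wild-type and Sap KO arrays. After anti-CD3 the difference was -0.93 ± 0.24 (1.91-fold lower, adjusted p = 0.0248), and all stimulated Elk/Sap KO arrays lay below the lowest of the other genotypes. Wild-type mouse 3, whose arrays have the high dap level of the Elk/Sap KO arrays, read 7.87 untreated and 6.88 stimulated. These values lay above all Elk/Sap KO arrays of the same state. Mouse 3 is the only wild-type mouse at this level, so its values cannot separate dap level from genotype, for Ccr7 or for the genes below. With the dap level as a term, the changes were -1.37 untreated (adjusted p = 0.0301) and -0.91 stimulated (0.106). Fitted on the 2 untreated groups alone, the untreated change had an adjusted p of 0.335. Leaving out single arrays ended the stimulated call for 5 arrays: wild-type anti-CD3 mice 1, 2 and 3 (adjusted p = 0.0801, 0.0624 and 0.0579) and Elk/Sap KO anti-CD3 mice 1 and 2 (0.133 and 0.0575). In Sap KO and Elk KO, the untreated changes of -0.43 and -0.50 were not called (adjusted p = 1.00 and 0.695). In order of group means, untreated wild-type (8.14) stood first and stimulated Elk/Sap KO (5.99) last, and neighbouring groups from stimulated wild-type (6.92) down to stimulated Elk KO (6.74) overlapped.

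Ccr4 encodes the receptor for CCL17 and CCL22, which thymocytes acquire early after positive selection. It rose with anti-CD3 on average over the genotypes and in Sap KO and Elk KO cells taken alone. In wild-type mice 1, 2 and 3 it read 5.31, 5.24 and 5.52 untreated and 6.75, 7.04 and 5.89 after anti-CD3. In Sap KO mice it read 5.11, 5.14 and 4.999 untreated and 7.59, 7.01 and 7.28 stimulated. Both genotypes separated completely, as 11.1% and 12.5% of all genes did, and the untreated values lie just above or within the Xist range. The Sap KO rise was 2.21 ± 0.29 (4.63-fold, adjusted p = 1.01e-04), and Ccr4 was the one member called there, against 0.363% of all genes. The wild-type change of 1.20 ± 0.29 was not called (adjusted p = 0.093); without the stimulated array of wild-type mouse 3, the lowest of its group, it was 1.54 (adjusted p = 0.0112).

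In Elk KO mice Ccr4 read 4.95, 4.87 and 4.55 untreated and 6.22, 6.03 and 6.31 after anti-CD3. In Elk/Sap KO mice it read 4.63, 5.47 and 4.34 untreated and 5.85, 4.92 and 5.93 stimulated. Elk KO separated completely from untreated arrays at background, as 10.9% of all genes did, whereas in Elk/Sap KO mouse 2 the order was turned. The Elk KO rise of 1.40 ± 0.29 (2.64-fold against an untreated level within background) had an adjusted p of 0.0375, and Ccr4 was the one member called, against 0.203% of all genes. That call was lost with mouse as a block (adjusted p = 0.379) and when any of 13 single arrays was left out (adjusted p up to 0.322). In Elk/Sap KO the change of 0.76 ± 0.29 was not called (adjusted p = 0.615), and 0 of 6 members were by limma, 2 with an unadjusted p under 0.05, against 0.346% of all genes called. Without both arrays of mouse 2, which include the array of wide spread, it was 1.41 (adjusted p = 0.0101).

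The averaged rise of Ccr4 was 1.39 ± 0.14 (2.62-fold, adjusted p = 1.05e-06), and it was higher in 11 of 12 mice, or 9 of 10 without Elk KO mice 1 and 2. No knockout's Ccr4 response differed from the wild-type response by an adjusted p under 0.05. The largest of these differences, 1.01 in Sap KO, had an unadjusted p of 0.0204 and an adjusted p of 1.00. After anti-CD3 Ccr4 was lower in Elk/Sap KO than in wild-type arrays (-0.99 ± 0.29, 1.99-fold, adjusted p = 0.0389), although the groups overlapped. There 2 of the Elk/Sap KO values, 5.85 and 5.93, lay beside wild-type mouse 3, with the high dap level, at 5.89. The call was lost with mouse as a block (adjusted p = 0.056), with the dap level as a term (-0.81, 0.2), with only the 2 groups fitted (0.14), without both arrays of Elk/Sap KO mouse 2 (-0.67, 0.0796), and without wild-type anti-CD3 mouse 1 or 2 (0.123 and 0.191) or Elk/Sap KO anti-CD3 mouse 1 or 2 (0.0938 and 0.225). Among groups, stimulated Sap KO had the highest mean (7.30) and overlapped stimulated wild-type (6.56), which overlapped stimulated Elk KO (6.19).

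**Figure D2:**
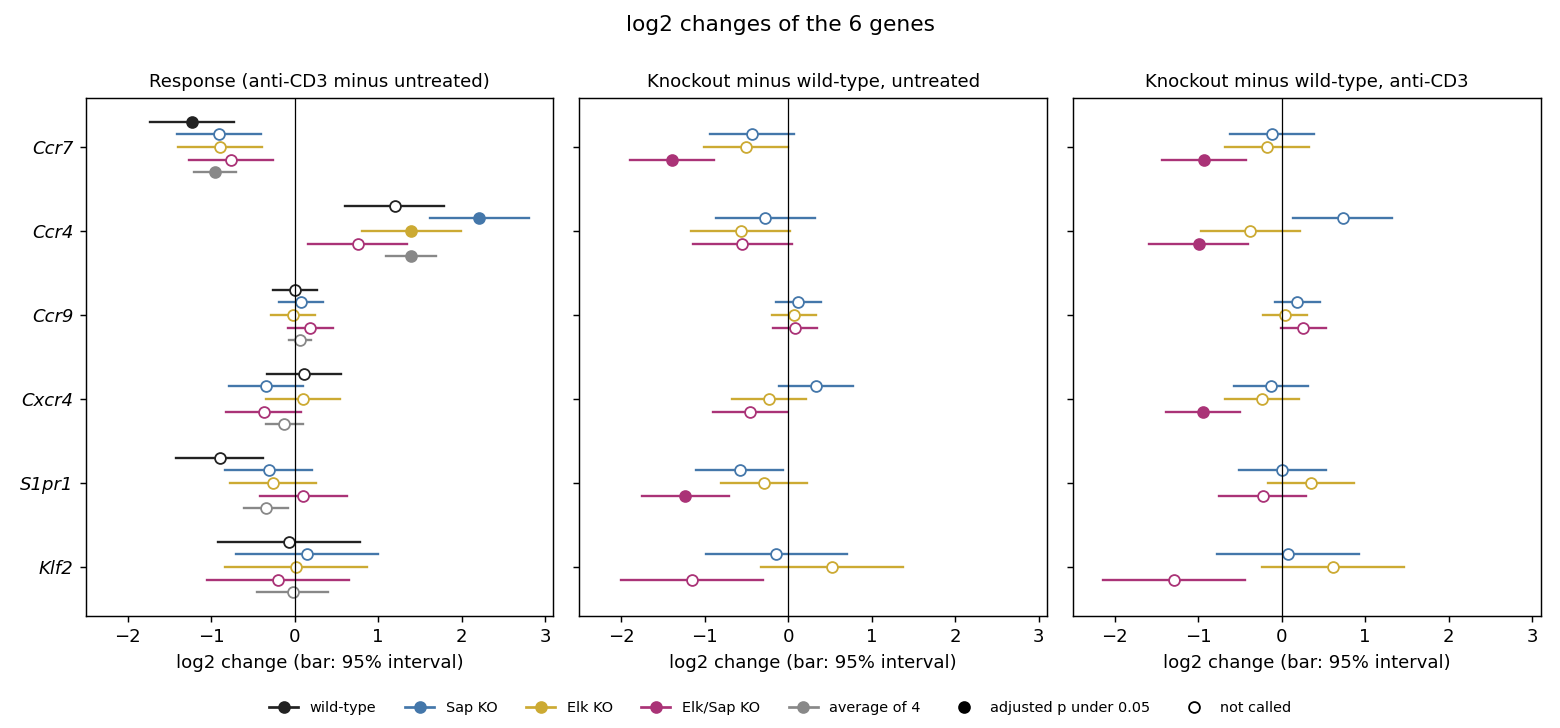
log2 change (x axis) of the 6 genes with 95% intervals, for the response to anti-CD3 in each genotype and averaged over 4 (left), and for each knockout against wild type untreated (middle) and after anti-CD3 (right); filled points have an adjusted p under 0.05. The filled points are those of Ccr7 and Ccr4 in the responses, Ccr7 and S1pr1 in untreated Elk/Sap KO, and Ccr7, Ccr4 and Cxcr4 in stimulated Elk/Sap KO.

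Cxcr4, the receptor for CXCL12, retains DP cells in the cortex and supports their survival. It was called in no response to anti-CD3, and was lower in stimulated Elk/Sap KO than in stimulated wild-type cells. Wild-type mice 1, 2 and 3 read 11.02, 11.07 and 10.98 untreated and 11.11, 11.25 and 11.05 stimulated. Sap KO mice read 11.35, 11.34 and 11.37 untreated and 11.00, 10.92 and 11.10 stimulated. Each wild-type mouse was slightly higher after anti-CD3 and each Sap KO mouse lower, by 0.27 to 0.41. The difference between these responses, -0.46, was not called (adjusted p = 1.00).

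In Elk KO mice Cxcr4 read 10.93, 11.23 and 10.23 untreated and 11.14, 11.06 and 10.51 stimulated. Elk/Sap KO mice read 10.74, 10.59 and 10.37 untreated and 10.53, 10.36 and 9.70 stimulated. All Elk/Sap KO arrays lay below all wild-type arrays of the same state, but not below all Elk KO arrays. Elk KO mouse 3 read below the untreated Elk/Sap KO arrays (10.23) and within the range of the stimulated ones (10.51). The difference between Elk/Sap KO and wild type was -0.46 ± 0.21 untreated (adjusted p = 0.2) and -0.94 ± 0.21 stimulated (1.92-fold lower, adjusted p = 0.0134). Wild-type mouse 3, with the high dap level, read 10.98 and 11.05, above every Elk/Sap KO array, which cannot separate dap level from genotype. With the dap level as a term the stimulated change was -0.88 (adjusted p = 0.0836). The call was also lost without the stimulated array of wild-type mouse 2 (adjusted p = 0.0573) and with only the 2 groups fitted (0.0506). In untreated Sap KO cells, all 3 values exceeded all wild-type values, and the change of 0.33 was not called (adjusted p = 1.00).

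Ccr9, the receptor for CCL25, is characteristic of DP thymocytes. Its brightest probe set, 1427419_x_at, read 12.5 to 13.02 over all 24 arrays and was called in none of the 14 comparisons. The wild-type values were 12.69, 12.60 and 12.77 untreated and 12.50, 12.69 and 12.89 stimulated, and the Elk/Sap KO values were 12.97, 12.56 and 12.76 untreated and 13.02, 12.98 and 12.86 stimulated. The 95% interval of its averaged response ran from -0.07 to 0.19, and that of untreated Elk/Sap KO against wild type from -0.19 to 0.34. The plot of the 5 probe sets shows where they differ.

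**Figure D3:**
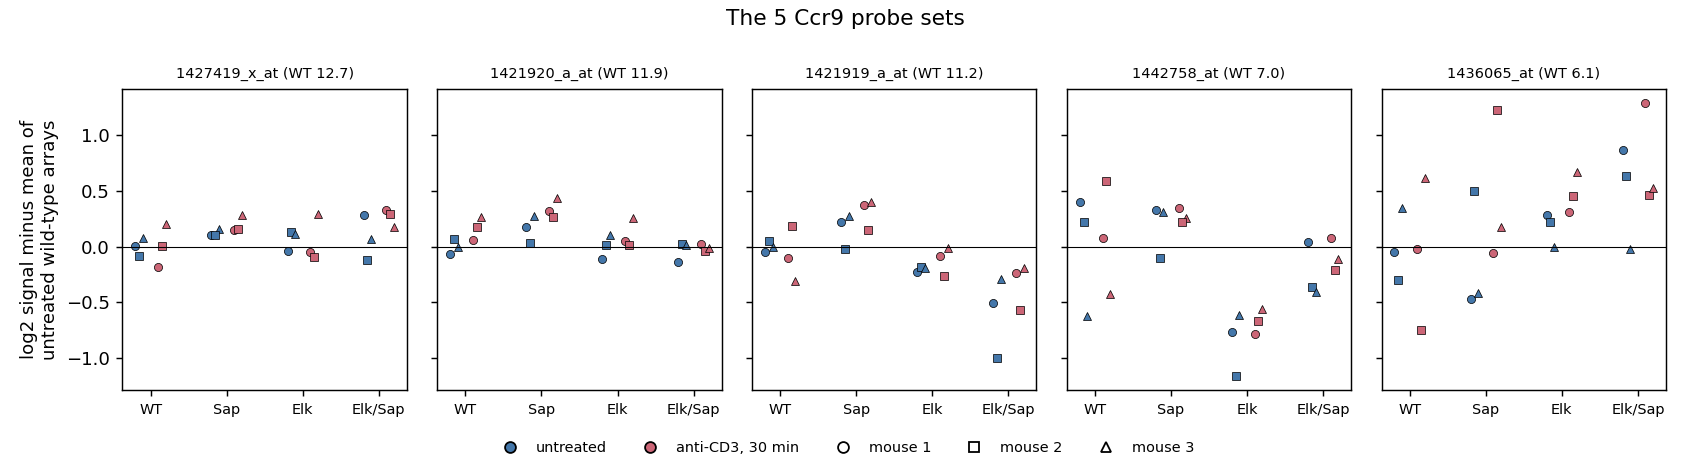
log2 signal minus the mean of the 3 untreated wild-type arrays (y axis) for the 5 Ccr9 probe sets, by genotype (x axis) and state (blue untreated, red anti-CD3), with the mouse number as the symbol; the untreated wild-type mean stands above each panel. The brightest probe sets stay within a narrow band, while 1421919_a_at is lower in untreated Elk/Sap KO; the change of 1442758_at in untreated Elk KO, -0.85, was not called.

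The other 4 Ccr9 probe sets disagreed in part. Over all probe sets tested, 1421919_a_at was lower in untreated Elk/Sap KO than in wild-type arrays (-0.60 ± 0.16, adjusted p = 0.0321), at 10.71, 10.22 and 10.93 against 11.17, 11.28 and 11.22. The groups did not overlap. The same comparison gave 0.08 for 1427419_x_at (adjusted p = 0.714) and -0.03 for 1421920_a_at (0.867), and neither was called. The dimmer probe set 1442758_at read 6.22, 5.82 and 6.38 in untreated Elk KO against 7.39, 7.21 and 6.37 in wild-type arrays, which overlap through wild-type mouse 3, and the change of -0.85 was not called (adjusted p = 0.199). The dimmest, 1436065_at, ranged from 5.34 to 7.39 and was called in none of the 14 comparisons. No file used here places these probe sets on the transcript, so Ccr9 has no single direction in untreated Elk/Sap KO cells.

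S1pr1 encodes the receptor that carries mature thymocytes out into the blood. It was lower in untreated Elk/Sap KO than in untreated wild-type cells, and its response to anti-CD3 was not called in any genotype. Wild-type mice 1, 2 and 3 read 6.77, 6.33 and 6.40 untreated and 5.58, 5.61 and 5.63 stimulated. Sap KO mice read 5.94, 5.88 and 5.94 untreated and 5.58, 5.69 and 5.57 stimulated. Both genotypes separated without overlap, as 11.1% and 12.5% of all genes did. The changes of -0.90 ± 0.25 in wild-type (adjusted p = 0.288) and -0.31 in Sap KO (1.00) were not called. Fitted on the wild-type arrays alone, the wild-type change had an adjusted p of 0.0409. Elk KO mice read 6.88, 5.74 and 6.01 untreated and 5.92, 6.44 and 5.51 stimulated, and these groups overlapped.

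In Elk/Sap KO mice S1pr1 read 5.77, 5.04 and 5.01 untreated and 5.10, 5.65 and 5.38 stimulated. The values of untreated mice 2 and 3 lie within the Xist range. Untreated Elk/Sap KO arrays were 2.35-fold lower than wild-type arrays (-1.23 ± 0.25, adjusted p = 0.0118), without overlap, and stimulated arrays differed by -0.23 (adjusted p = 0.679). Wild-type mouse 3, with the high dap level, read 6.40 untreated, above the 3 Elk/Sap KO arrays, which cannot separate dap level from genotype. With the dap level as a term the untreated change was -1.22 (adjusted p = 0.0612), and without untreated wild-type mouse 1 the adjusted p was 0.0899. With only the 2 untreated groups fitted it was 0.528. The difference between the Elk/Sap KO and wild-type responses was 1.00 ± 0.35 with an unadjusted p of 0.00995 and an adjusted p of 0.703. The averaged response was -0.34 ± 0.13 (adjusted p = 0.371), lower in 9 of 12 mice, or 8 of 10 without Elk KO mice 1 and 2.

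Klf2 encodes the transcription factor that switches on S1pr1 in mature T cells and keeps them quiescent. No response to anti-CD3 was called in any genotype, and the Elk/Sap KO values lay below all others, a difference that missed the threshold. Wild-type mice 1, 2 and 3 read 9.73, 9.23 and 8.83 untreated and 9.74, 8.86 and 8.995 stimulated. Sap KO mice read 9.10, 9.41 and 8.88 untreated and 9.26, 9.55 and 9.01 stimulated. Elk KO mice read 10.45, 9.27 and 9.66 untreated and 9.14, 10.64 and 9.67 stimulated. Elk KO mice 1 and 2 moved by -1.31 and 1.37 in opposite directions, and the same arrays, untreated mouse 1 and stimulated mouse 2, were also the highest of their groups for Ccr7 and S1pr1.

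Elk/Sap KO mice 1, 2 and 3 read 7.23, 8.69 and 8.43 for Klf2 untreated and 7.18, 8.08 and 8.48 stimulated. The highest of these, 8.69, lies below the lowest value of any other genotype in either state, 8.83. That lowest value is the untreated array of wild-type mouse 3, with the high dap level. The change against wild type was -1.15 ± 0.41 untreated (2.22-fold, adjusted p = 0.109) and -1.29 ± 0.41 stimulated (2.44-fold, adjusted p = 0.0618), and neither was called. Mouse 1 of Elk/Sap KO was the lowest in both states. Without that mouse's array the change was -0.71 untreated (adjusted p = 0.28) and -0.92 stimulated (0.327). With the dap level as a term the adjusted p was 0.21 untreated and 0.179 stimulated. Other settings gave a call: without the array of mouse 3 the change was -1.31 untreated (adjusted p = 0.0406) and -1.57 stimulated (0.0268), with array weights -1.96 untreated (1.04e-04) and -1.04 stimulated (0.0462), and after median centring of the arrays -1.33 stimulated (0.0435). The 95% interval of the averaged response, -0.02, ran from -0.45 to 0.40.

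All calls of the 6 genes against wild type were in the combined knockout. In untreated Elk/Sap KO cells 2 of the 6 genes were called, both lower (Ccr7 and S1pr1), where 3.44% of all genes were called and 2.69% as lower. In stimulated cells 3 of the 6 were called, all lower (Ccr7, Ccr4 and Cxcr4), where 6.83% were called and 5.43% as lower. The median change of the 6 genes was -0.85 untreated and -0.94 stimulated, against 0.03 and 0.00 over all genes. Without overlap stood 4 of the 6 genes untreated, where 15.8% of all genes did, and 3 of 6 stimulated, where 24.8% did. In Sap KO and Elk KO, limma called 0 of 6 in either state, where 0.0824% and 0.0989% of all genes were called untreated and 0.0715% and 0.22% after anti-CD3. Of the 6 genes, 1 had an unadjusted p under 0.05 in untreated Sap KO (S1pr1) and 1 in stimulated Sap KO (Ccr4), and 0 in Elk KO in either state. The Elk/Sap KO arrays had Actb 3′ to 5′ differences of 0.545 to 1.05, above all wild-type arrays and overlapping Elk KO arrays (0.381 to 0.654), and the high dap level. The part of RNA quality in these differences was not tested.

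In untreated Sap KO cells 5 of the 6 genes stood without overlap with wild type, where 9.13% of all genes did: Ccr7, Ccr4 and S1pr1 lower, Ccr9 and Cxcr4 higher. Their log2 changes ran from -0.58 for S1pr1 to 0.33 for Cxcr4. The Ccr9 change, 0.12, is that of the brightest probe set; the other 4 probe sets overlapped wild type, and 1436065_at changed by -0.13. The mean log2 signal of 9 B cell markers, 2 of them above the Xist range on average, was 5.80 to 5.99 in untreated Sap KO arrays. In untreated wild-type arrays it was 5.40 to 5.61, and the median change was 0.32. The summed signal of the 9 overlapped, at 3489 to 4490 in untreated Sap KO and 3341 to 3668 in untreated wild-type arrays. By limma 0 of the 9 were called and 3 had an unadjusted p under 0.05, and the part of B cells in the differences was not tested. After anti-CD3, 0 of the 6 genes stood without overlap, where 10.8% of all genes did. The knockout comparisons share the wild-type arrays, so the 3 sets of values are not independent of each other. The effects of the single and combined knockouts were not tested against one another.

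Ccr7, S1pr1 and Klf2 are also markers of mature single-positive T cells, so 12 other markers of those cells were followed. Of these, 6 lay above the Xist range on average, and S100a4, S100a6, Foxp3, Il2ra, Ccl5 and Nkg7 lay within or below it. The mean log2 signal of the 12 was 5.42 to 5.56 in untreated wild-type, 5.43 to 5.65 in untreated Sap KO, 5.23 to 5.59 in untreated Elk KO and 5.12 to 5.54 in untreated Elk/Sap KO arrays. After anti-CD3 it was 5.30 to 5.38 in wild-type and 5.12 to 5.64 in Elk/Sap KO arrays. Of the untreated Elk/Sap KO arrays, those of mice 1 and 2 (5.54 and 5.50) lay within the wild-type range of this mean and that of mouse 3 (5.12) below it. Mouse 2 is the array of wide spread. The summed signal of the 12 reached lower, at 599 to 911 in untreated Elk/Sap KO against 823 to 999 in untreated wild-type arrays. After anti-CD3 it was 573 to 880 against 722 to 794. The part of mature cells in the differences was not tested.

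**Figure D4:**
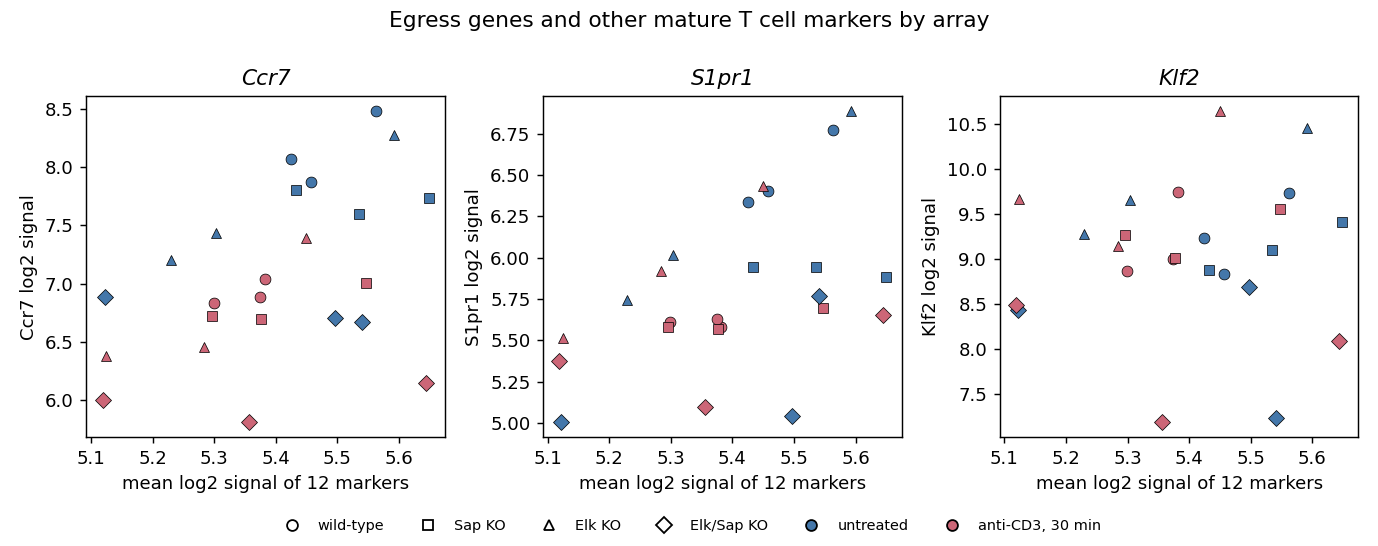
Signal of Ccr7, S1pr1 and Klf2 (y axes, log2) against the mean log2 signal of 12 other mature T cell markers (x axis) in each of the 24 arrays, with the genotype as the symbol and the state as the colour. The Elk/Sap KO arrays (diamonds) spread over the marker range from 5.12 to 5.64 with Ccr7 at 6.88 or less, S1pr1 at 5.77 or less and Klf2 at 8.69 or less. Stimulated arrays of other genotypes also lay at such Ccr7 and S1pr1 levels, as in Elk KO mouse 3 (6.38 and 5.51). None lay at that Klf2 level.

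Of the 12, Il7r, the interleukin 7 receptor that DP cells lose and mature cells regain, was the one marker called in untreated Elk/Sap KO against wild type (-1.69 ± 0.40, 3.22-fold lower, adjusted p = 0.023). It read 7.66 to 8.10 in untreated wild-type and 5.28 to 7.20 in untreated Elk/Sap KO arrays, without overlap. Cd44, an adhesion receptor of activated and mature cells, was the one called in stimulated cells, and was higher (0.93 ± 0.24, adjusted p = 0.0248). Of the 13 DP markers, Cd8a, Cd3e and Cd3g were lower in untreated Elk/Sap KO (-0.52, -0.76 and -0.48, adjusted p = 0.0404, 0.0466 and 0.0363). There 2.69% of all genes were called lower. Cd4 and Cd3e were lower in stimulated Elk/Sap KO (-0.90 and -0.94, adjusted p = 0.0128 and 0.0125), where 5.43% of all genes were called lower. All of the 7 granulocyte and 5 erythroid markers measured lay within or below the Xist range on average.

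Genes of the same pathways were read from lists written for these receptors. Of 17 other chemokine receptor genes measured, 2 lay above background, and limma called 0 in the averaged response or in Elk/Sap KO against wild type; 0, 2 and 2 had an unadjusted p under 0.05 in the averaged, untreated and stimulated comparison. Of 4 measured ligand genes, Ccl25 was called in untreated Elk/Sap KO (-0.64 ± 0.15, adjusted p = 0.0212). Of 12 other sphingosine 1-phosphate pathway genes, 6 above background, limma called 0 in those 3 comparisons (1, 2 and 3 with an unadjusted p under 0.05), with medians of -0.02, 0.09 and -0.10 against 0.01, 0.03 and 0.00 over all genes.

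The list around Klf2 held 17 measured genes, including factors upstream of it. Foxo3, a forkhead factor of the family that activates Klf2, fell in the averaged response (-0.27, adjusted p = 0.0475) and was higher in stimulated Elk/Sap KO (0.55, adjusted p = 0.0207). Foxp1, a forkhead factor that keeps T cells quiescent, was also higher there (0.64, adjusted p = 0.0242). Mapk7, the ERK5 kinase that induces Klf2 through Mef2 factors, was lower there (-0.79, adjusted p = 0.0139), as was Klf13 (-0.75, adjusted p = 0.0444). In total 2 of the 17 were higher and 2 lower in that comparison, where 6.83% of all genes were called. In untreated Elk/Sap KO the one gene called was Il7r, described above, where 3.44% were.

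Genes for signalling below the receptors, 28 measured and 26 above background, were lower wherever called in Elk/Sap KO against wild type: 2 untreated and 6 stimulated, where 2.69% and 5.43% of all genes were called lower. Their median changes were -0.26 and -0.32, against 0.03 and 0.00 over all genes. Elmo1, part of a Rac activator, was lower in both states (-0.63 and -0.57), and Rassf5, which links Rap1 to integrins, untreated (-0.56). In stimulated cells Arrb2, the arrestin that desensitises chemokine receptors, changed by -1.18 (adjusted p = 0.0131), and Coro1a, an actin regulator needed for thymocyte egress, by -0.77 (0.00761). Rac2 and Vav1 changed by -0.81 and -0.53 (adjusted p = 0.0222 and 0.0498). In the averaged response limma called 0 of the 28, and 2 had an unadjusted p under 0.05.

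Of 16 adhesion and homing genes, 2 rose in the averaged response. Cd69, whose product holds S1PR1 inside the cell, rose by 5.59 ± 0.27 (48.1-fold, adjusted p = 2.84e-12), in every genotype by 5.14 to 6.16. Cd24a, a surface protein of immature thymocytes, rose by 0.61 (adjusted p = 3.96e-07). In Elk/Sap KO against wild type, Cd53 was lower untreated (-1.06, adjusted p = 0.0283), and in stimulated cells Cd99 and Selplg, the P-selectin ligand, were lower (-1.05 and -0.80) and Cd44 higher.

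The genes whose pattern over the 24 arrays was most like each member's were taken by Pearson's r among 8361 genes with a mean of at least 6, as a description. For S1pr1 these were Il7r (0.825), Ccr7 (0.809) and Tnik (0.728), and for Ccr7 Thap11 (0.843), Casp2 (0.835) and Anapc7 (0.788). Klf2 was followed by Eif3f (0.847), Ly6e (0.83) and Ppm1g (0.83). Ccr4 was followed by Orai1 (0.909), Sh2d2a (0.885) and Fam83d (0.876), Cxcr4 by Alyref (0.878), Lef1 (0.876) and Prcc (0.864), and Ccr9 by Eif4g2 (0.856), Sgk3 (0.82) and Zfp959 (0.791). Between members, with group means removed, r was 0.775 for Ccr7 and S1pr1, 0.74 for Ccr7 and Klf2 and 0.32 for S1pr1 and Klf2. For Ccr9 and Klf2 it was -0.646. Elk KO untreated mouse 1 and stimulated mouse 2, the highest of their groups for Ccr7, S1pr1 and Klf2, enter these values. The 24 arrays share genotypes, states and RNA quality, which enter every such value.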

How the data were processed

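The files hold RMA log2 signal for 45101 probe sets on 24 arrays, deposited by the authors and made with RMA in the affy package, per the submitters' processing notes; the genome build, versions and settings were not stated in those sources. The values were used without further scaling. Of the probe sets, 34945 have 1 gene symbol in the platform annotation, 932 several and 9160 none; the remaining 64 are controls and entered no test. For each of 18193 genes the probe set with the highest mean was kept; the 5 Ccr9 probe sets were also tested one by one over all probe sets.

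limma 3.58.1 (R 4.3.3) fitted a mean for each of 8 groups, with 16 residual degrees of freedom and moderated variances, and 14 comparisons. P values are two-sided and adjusted within a comparison by Benjamini-Hochberg. The script was tested on simulated data.

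The labels give an untreated and an anti-CD3 array the same mouse number, so the numbers pair arrays of an animal. Over 8361 genes, and with group means removed, the 12 pairs correlated at -0.03 to 0.851, 11 above 0.1. The reported fit ignores the pairs. Alternatives were a fit with mouse as a block, all probe sets tested, the mean of a gene's probe sets, median centring, a minimum mean of 6, array weights, only the compared groups, the dap level as a term, and leaving out each array; leaving out both arrays of Elk/Sap KO mouse 2 was chosen after seeing the data. With mouse as a block, responses and their differences were fitted with a term for each mouse. Knockouts against wild type were fitted with a correlation of 0.218 between arrays of a mouse. No 2 arrays correlated above 0.9962.

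Named genes are the 6 members, Elk1, Elk4 and Xist as checks, from each pathway list up to 4 called genes in the averaged response and up to 2 in each other comparison, and the 3 genes most like each member. Cell type markers, and pathway genes beyond those 2 (Rac2, Vav1, Foxp1, Klf13, Selplg), were named after their values were seen; 1 other called gene of the signalling list is not reported here. The members and lists were chosen with earlier results of these data known. Promoters were read from RefSeq, and figures were drawn with matplotlib 3.10.9.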

Additional observations from a re-analysis of the deposited data

How the results depend on the processing

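Of 461 counts of called members under an alternative, 421 equalled the reported count or came close to it. The same held for 314 of the 336 that left out 1 array. Counts such as 2 against 3 or 3 against 4 were taken as close. Many comparisons had a reported count of 0, which cannot fall, so these totals do not measure how stable the calls are. No called change turned direction. In the wild-type response the count of 1 became 0 with the replicate block and 2 with only the groups compared, with array weights or without both arrays of Elk/Sap KO mouse 2; leaving out single arrays gave 0 to 2. In the Sap KO response 1 became 0 with a mean of 6 or more, and 2 with only the groups compared or array weights. In the Elk KO response 1 became 0 with the replicate block, with all probe sets tested or with a mean of 6 or more, and was 0 to 1 without single arrays. In the Elk/Sap KO response 0 became 1 without both arrays of mouse 2. The averaged count of 2 became 1 with a mean of 6 or more and was 3 with array weights. In untreated Elk/Sap KO against wild type, 2 became 0 with only the groups compared, 1 with a mean of 6 or more or the dap term, and 5 with array weights, and 1 to 3 without single arrays. In stimulated Elk/Sap KO against wild type, 3 became 1 with only the groups compared and 0 with the dap term, and 0 to 4 without single arrays. The minimum mean removes Ccr4 and S1pr1 by construction, and the other causes were not tested.

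The replicate block ended the calls of Ccr7 in wild type (adjusted p = 0.099), Ccr4 in Elk KO (0.379) and Ccr4 in stimulated Elk/Sap KO (0.056), and changed no other call of a member. With only the groups compared, the untreated Elk/Sap KO changes of Ccr7 and S1pr1 had adjusted p values of 0.335 and 0.528, and the stimulated changes of Cxcr4 and Ccr4 0.0506 and 0.14. The counts of all genes called also moved: untreated Elk/Sap KO against wild type 626, between 2 (only the groups compared) and 5860 (array weights), and 64 to 4927 without single arrays; stimulated 1242, between 170 (dap term) and 3955 (array weights), and 169 to 2344. Array weights gave 142, 229, 186, 696 and 1091 genes in the wild-type, Sap KO, Elk KO, Elk/Sap KO and averaged responses, against 64, 66, 37, 63 and 264, and 964 and 931 against 18 and 40 for Elk KO against wild type untreated and stimulated, and 42 and 47 against 15 and 13 for Sap KO. S1pr1 and untreated Ccr4 lie close to background, which limits their changes at the low end.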

Other observations

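Among the marker lists, Rag1, the recombinase that DP thymocytes use to assemble their receptor genes, was the 1 of 13 DP markers called in the averaged response. It fell by 0.64 ± 0.05 on the log2 scale (1.56-fold lower, adjusted p = 3.68e-08 by limma), and each genotype alone was called at -0.61 to -0.71. Pecam1, an adhesion molecule of endothelial and blood cells, was the 1 of 14 epithelial and stromal markers called in untreated Elk/Sap KO against wild type (-0.79 ± 0.18, adjusted p = 0.0207). The median change of the list had the opposite sign, 0.36, against 0.03 over all genes, 7 of the 14 had an unadjusted p under 0.05, and its mean log2 signal was 4.64 to 5.42 in untreated Elk/Sap KO against 4.63 to 4.79 in untreated wild-type arrays, with 5 of the 14 above the Xist range. Of 9 B cell markers measured, 2 lay above the Xist range, and limma called 0 in the averaged response or in Elk/Sap KO against wild type. These genes were named after their values were seen.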
